A study of Mus musculus with 100 samples.

Results

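A set of 10 signalling genes was followed across mouse fat and adipocytes in which Gps2 was targeted: the regulators of K63-linked ubiquitin chains and of tumour necrosis factor (TNF) signalling Ube2n, Ube2v1, Traf2, Traf6, Birc2, Birc3, Rnf8, Siah2, Cyld and Tnfaip3. They were chosen by name, and all 10 were found, of 32484 genes with a transcript in the tables. Wild type and knockout were compared in 5 tables of stranded poly(A) RNA sequencing, made to find genes deregulated by loss of GPS2 from adipocytes. Every sample of either genotype carries the strain label Adipoq-Cre-Gps2flox/flox, a Cre driven by the promoter of the adipocyte gene Adipoq with floxed Gps2 alleles, and the genotype stands only in the titles. Whether the replicates were separate animals is not in the labels, and every p-value below therefore measures the spread among these samples, which may be technical.

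The chow table held intra-abdominal fat of mice aged 19 weeks on normal chow (3 wild type, 3 knockout). The 4-week table held intra-abdominal fat of mice aged 11 weeks on high fat diet, with 4 weeks in its name (4 and 4). The 12-week fat table (3 and 3) and the adipocyte table (3 and 2) came from mice aged 19 weeks on high fat diet, with 12 weeks in their names; the first held whole intra-abdominal fat and the second adipocytes of that depot. The inguinal table came from the beta-adrenergic part of the series, with inguinal fat of mice aged 8 weeks (4 and 4), and its labels do not say which of its samples were stimulated.

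A ubiquitin chain linked through lysine K63 works as a scaffold for signalling complexes rather than as a mark for degradation. When TNF or a Toll-like receptor is engaged, Traf ligases and the Birc proteins (the cellular inhibitors of apoptosis) work with the conjugating enzyme pair of Ube2n and Ube2v1 to build such chains, and the kinases that switch on NF-kB and JNK assemble on them. Cyld and the product of Tnfaip3, called A20, take the chains down or edit them, and Tnfaip3 is itself a classic NF-kB target gene, as is Birc3. GPS2, which works in the nucleus with the corepressors NCoR and SMRT, is also known as an inhibitor of the Ube2n enzyme, so RNA levels alone do not read that activity.

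Gps2 RNA gave no check of the labels. Its full transcript had 388 ± 27.1 normalised reads in the wild types of the 4-week table and 390 ± 42.7 in the knockouts (SD, n = 4 and 4), and at 803 ± 47.7 and 825 ± 20.1 in adipocytes (n = 3 and 2). In none of the 5 tables did it pass the test. The sources used here do not name the deleted exons, and reads of exons that remain check nothing, so genotype always means the label.

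Depth, as the reads of all chosen transcripts in a replicate, ranged from 29444602 to 63456837 over the 5 tables. All 10 adipocyte markers, such as Adipoq and Plin1, stood at 50 normalised reads or more in every sample, a bar too low to compare adipocyte content. On chow their sum was 253634 in wild type 2, against 623139 to 975154 in the other chow samples. Some libraries stood apart. Markers of the epididymis, a duct that lies against this fat depot, summed to 20034 and 64531 in 12-week fat knockouts 3 and 2, against 0 to 31.5 in the 3 wild types and 0 in knockout 1. On chow they summed to 156175, 143912 and 49940 in knockouts 1 and 2 and wild type 2, against at most 48.6 in the other samples. Chow knockouts 1 and 2 were also closer to each other than any other chow pair of the same genotype. Their read counts differed with a chi-square per degree of freedom of 2.41, against 50.3 to 263 for the other pairs. Libraries of the same chow replicate gave 1.03 to 1.15. The 3 chow knockouts may therefore hold fewer than 3 independent samples. In the 4-week table, B cell markers summed to 581 in knockout 1, against 54.0 to 154 in the other 7 samples, and on chow to 2420 in wild type 1, against 76.2 to 239.7. Skeletal muscle markers summed to 2601 and 2596 in inguinal wild type 2 and knockout 3, against 28.6 to 144 in the other 6 samples.

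Of the 10 regulators, 1 rose in the 4-week fat and 1 in the adipocytes, and both times it was Tnfaip3. The test was limma on log2(value + 1) over all genes with a mean of 10 normalised reads or more, with Benjamini-Hochberg adjusted p at most 0.05. Of all genes tested, 3.45% passed in the 4-week table (1.01% higher in knockout) and 0.632% in adipocytes (0.540% higher). None of the 10 passed on chow, where 0% of genes passed, in 12-week fat, where 0% passed, or in inguinal fat, where 0.0322% passed. At an unadjusted p under 0.05, 1 of the 10 differed on chow, 2 in 12-week fat and 1 in inguinal fat, where 9.64%, 9.19% and 9.04% of all genes did (DESeq2 on recovered reads called 0, 0 and 1). All 10 passed the filter on low values in each table.

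**Figure D1:**
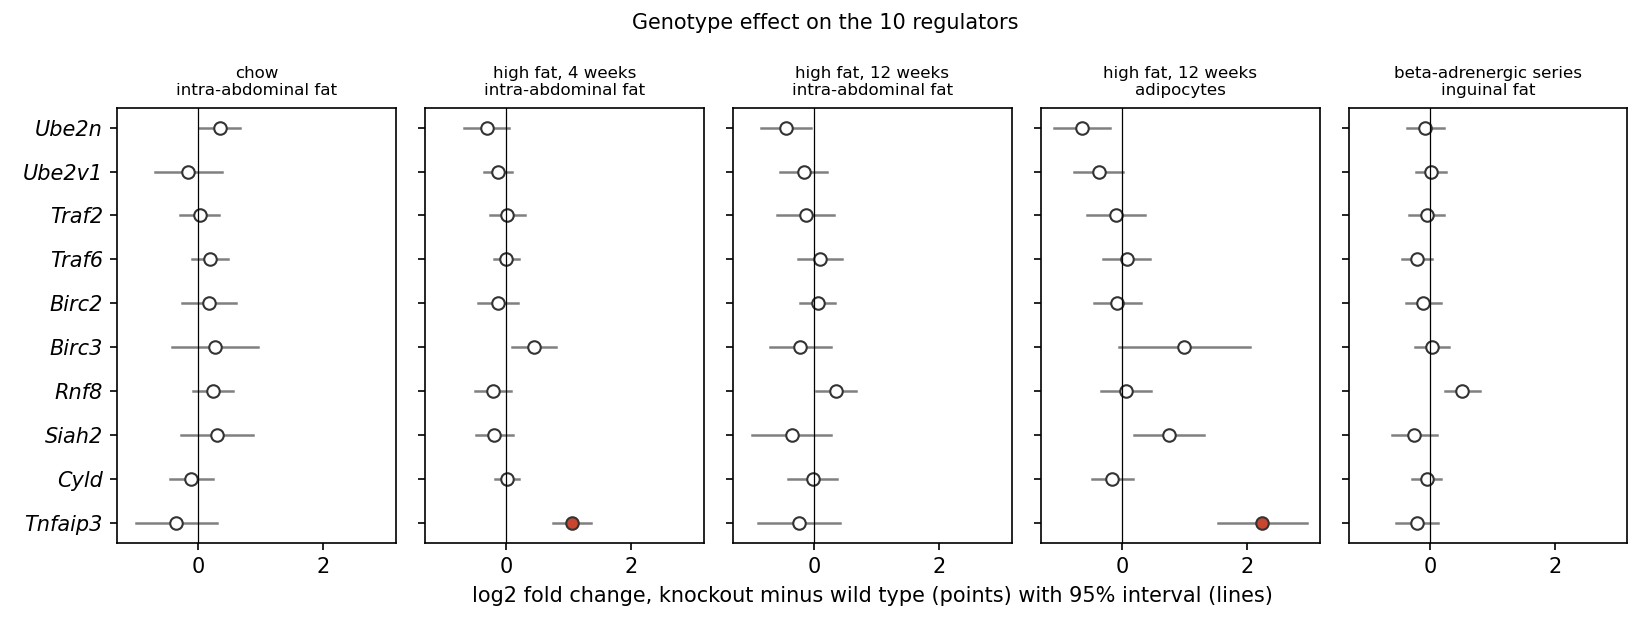
Log2 fold change, knockout minus wild type, of the 10 regulators in each table (points, filled where the adjusted p passed 0.05), with 95% intervals from limma (lines). Tnfaip3 lies at 1.06 in 4-week fat and at 2.25 in adipocytes, and the intervals of most other points include 0.

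Tnfaip3 encodes A20, a deubiquitinase and ubiquitin ligase that restrains NF-kB signalling downstream of TNF. The gene (ENSMUSG00000019850) lies on chromosome 10, from 19000910 to 19015657 on the minus strand of GRCm38. In the 4-week table its level was 209, 208, 140 and 177 normalised reads in the wild types and 387, 359, 402 and 362 in the knockouts. Every knockout lay above every wild type. The log2 fold change was 1.06 ± 0.13 (SE, adjusted p = 0.00557 by limma, higher in 4 of 4 knockouts).

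In adipocytes Tnfaip3 stood at 894, 1304 and 1710 normalised reads in the wild types and at 6806 and 5260 in the knockouts, again with no overlap. The log2 fold change was 2.25 ± 0.29 (SE, adjusted p = 0.0483 by limma, higher in 2 of 2 knockouts). This call is close to the threshold: the adjusted p was between 0.0800 and 0.316 without wild type 1, wild type 2, knockout 1 or knockout 2 (0.135, 0.149, 0.316 and 0.0800), and 0.105 without trend or robust moderation, while the fold change stayed between 2.00 and 2.47.

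In the other 3 tables Tnfaip3 stood lower on average in the knockouts, without passing the test. On chow it was 373, 221 and 379 in the wild types and 216, 232 and 299 in the knockouts (log2 fold change -0.35, 95% interval -0.998 to 0.29). In 12-week fat it was 686, 1408 and 1178 against 791, 1043 and 818 (-0.25, -0.91 to 0.41). In inguinal fat it was 131, 134, 95.3 and 100.1 against 85.5, 99.9, 101 and 106 (-0.22, -0.56 to 0.12). The genotypes overlapped in all 3 of these tables.

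**Figure D2:**
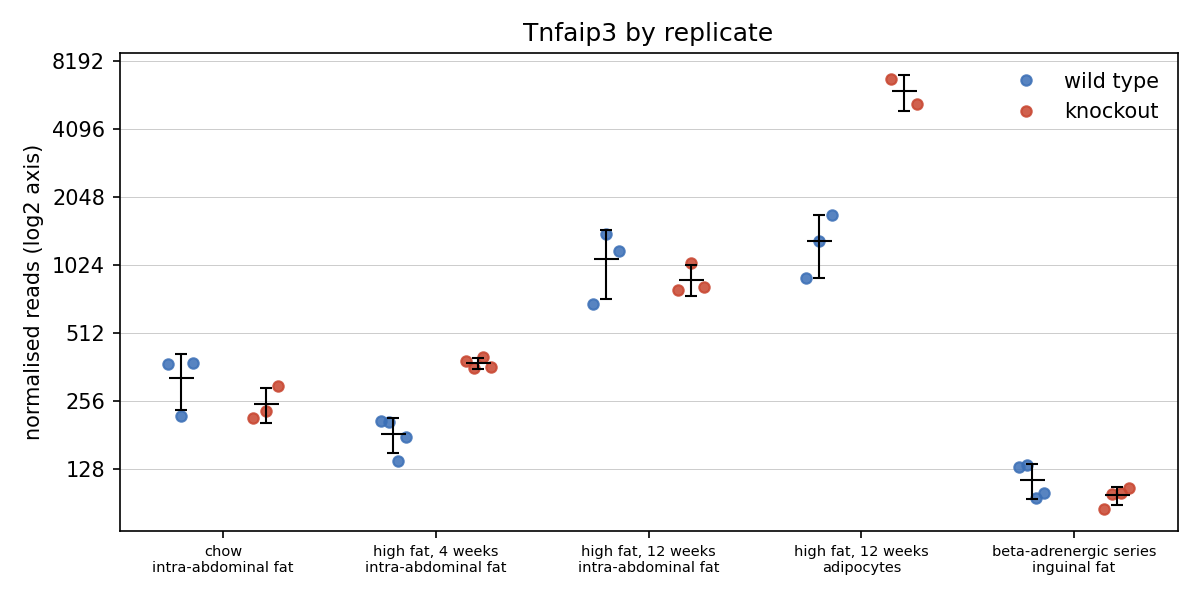
Normalised reads of Tnfaip3 per replicate (points, log2 axis) in the 5 tables, with mean and SD (black bars); the tables were normalised separately, so heights compare only within a table. The 4 knockouts of the 4-week table lie between 359 and 402, above all 4 wild types, and the 2 adipocyte knockouts lie at 6806 and 5260.

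Whether the genotype effect on Tnfaip3 differed between tables was tested as an interaction, in which a scale particular to a table cancels. The effect was 2.50 ± 0.44 larger (log2, SE) in adipocytes than in 12-week fat (adjusted p = 0.0268 by limma; 1.66% of genes passed) and 1.27 ± 0.20 larger in 4-week fat than in inguinal fat (adjusted p = 0.0175; 0.380% passed). With same-numbered samples of 12-week fat and adipocytes as a block, the first difference was 2.45 (adjusted p = 0.0169). With 1 replicate left out it no longer passed in 7 of 11 cases, with adjusted p up to 0.148 and differences of 2.25 to 2.80. The differences between 4-week fat and chow (1.41 ± 0.28, adjusted p = 0.174; 0% passed) and between 12-week and 4-week fat (-1.31 ± 0.30, adjusted p = 0.115; 0% passed) did not pass. No other regulator passed in any of these 4 comparisons. The adipocyte and 12-week fat tables share the labelled age, diet and depot, and they differ in holding adipocytes or whole fat. Between some of the other pairs of tables diet, age and depot differ together and cannot be told apart. For inguinal fat the same holds for beta-adrenergic stimulation, since the labels do not say which samples received it.

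The Tnfaip3 reads do not separate its transcripts. The 9-exon and 8-exon protein-coding transcripts, which have different starts, drew nearly the same reads: the second stood at 99.5% of the first in 4-week wild types and 99.8% in knockouts, and at 100.2% and 99.6% in adipocytes. A read can be listed under each transcript it overlaps.

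The promoter of Tnfaip3 is shown because 2 of its stretches hold the letters of a kappaB site, the sequence bound by NF-kB, and Nfkbia and Cyld are shown beside it as the inhibitor gene that also rose in adipocytes and as the other deubiquitinase. Windows of 30 bases are from RefSeq on GRCm38.p6, given 5′ to 3′ on the strand named, with the match in capitals.
Tnfaip3, chr10:19015516-19015545, minus strand, -125 to -116 from the start: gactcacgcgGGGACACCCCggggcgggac
Tnfaip3, chr10:19015403-19015432, minus strand, -12 to -3: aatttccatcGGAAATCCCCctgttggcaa
Nfkbia, chr12:55492657-55492686, minus strand, -29 to -20: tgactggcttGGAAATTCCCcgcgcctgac
Cyld, chr8:88696863-88696892, plus strand, -155 to -146: ttgaccgagcGGAAAGTCCCttcagccagc
Both strands of promoters 300 bases long (250 before to 50 after the start) were searched for GGGA, any 4 bases and CC in a row, found in 20.7% of 32851 promoters, and for the kappaB consensus, found in 4.51%, with 2 or more matches in 0.941%; the consensus was added after the promoters had been read, and the 2 motifs can overlap. Of the 10 regulators, 9 had a promoter in the table, and Tnfaip3 and Birc2 had 2 each. The first motif matched at 5 of the 9, 3 times at Tnfaip3 and 1 time each at Traf2, Traf6, Birc3 and Cyld. The consensus matched 2 times at Tnfaip3 and 1 time at Cyld, and at none of the other 7. Cyld RNA was 454 ± 13.0 and 458 ± 38.9 in 4-week fat (SD, n = 4 and 4). A match is a description of the letters, not a measured binding site.

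The conjugating enzymes came out with no passing change. Ube2n (Ubc13), which forms the K63 link, stood at 849, 913 and 1203 normalised reads in adipocyte wild types and at 658 and 592 in the knockouts, below all of them (log2 fold change -0.65 ± 0.19, adjusted p = 0.127 by limma). It was also lower in all 12-week fat knockouts, at 1425, 1332 and 1408 against 833, 988 and 1260 (-0.45 ± 0.17, adjusted p = 0.506). On chow the order was the other way round, at 289, 356 and 344 against 428, 402 and 420 (0.34 ± 0.13, adjusted p = 0.516). In 4-week and inguinal fat the groups overlapped. Its partner Ube2v1, which has no active site of its own, stood at 556 ± 62.6 and 426 ± 5.03 in adipocytes (SD, n = 3 and 2; adjusted p = 0.216). Of its chosen transcript, 92.2% overlaps other annotated genes, among them Gm20431 on the same strand and Gm11476 on the other, so its reads are uncertain.

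Among the ligases, Traf2 and Traf6, the adaptors that couple TNF and Toll-like receptors to chain building, passed in no table. Traf2 was 289 ± 49.3 and 289 ± 15.4 in 4-week fat (SD, n = 4 and 4; 95% interval of the log2 fold change -0.27 to 0.29). Traf6 was 282 ± 17.8 and 281 ± 17.8 there (-0.20 to 0.20). Traf6 was higher in every chow knockout (380.3 ± 23.7 and 433 ± 15.9, n = 3 and 3; 0.19 ± 0.12, adjusted p = 0.588 by limma) and lower in every inguinal knockout (251 ± 21.8 and 216 ± 14.1, n = 4 and 4; -0.21 ± 0.11, adjusted p = 0.615). Birc2 (cIAP1) was 395 ± 81.3 and 355 ± 39.1 in 4-week fat (-0.46 to 0.18) and passed in no table either.

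Birc3 (cIAP2), the NF-kB-inducible member of the pair, also passed in no table. In 4-week fat it was 166, 139, 137 and 137 in the wild types and 258, 150, 188 and 204 in the knockouts. The ranges overlap by knockout 2 alone, and the change did not pass (0.44 ± 0.16, adjusted p = 0.162 by limma). In adipocytes it was 193, 146 and 348 against 558 and 325 (0.99 ± 0.43, adjusted p = 0.224), where the wide 95% interval runs from -0.06 to 2.04. The genotypes overlapped in the other 3 tables, where the log2 fold change was 0.27 on chow, -0.23 in 12-week fat and 0.02 in inguinal fat. Deviations from the group mean over the 33 samples were set beside those of the mean log2 level of the macrophage markers. Of the 10 regulators, Birc3 (Pearson r = 0.69) and Tnfaip3 (r = 0.52) gave the highest values with this list. Other lists gave values of like size, 0.59 for Birc2 with the endothelial and 0.48 for Birc3 with the B cell markers. These values describe samples that share tables, and the part of macrophage RNA in the Birc3 and Tnfaip3 values was not tested.

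Rnf8, a nuclear ligase known for K63 chains at DNA breaks, was higher in every inguinal knockout, at 215, 256, 195 and 224 against 378, 297, 292 and 306 normalised reads. The change missed the threshold (0.51 ± 0.13, adjusted p = 0.200 by limma) and passed with DESeq2 on recovered reads (0.49, adjusted p = 0.0233). It was also higher in every 12-week fat knockout (955 ± 43.2 and 1218 ± 165, SD, n = 3 and 3; adjusted p = 0.527) and in every chow knockout (323 ± 1.96 and 381 ± 44.2; adjusted p = 0.567). In 4-week fat Rnf8 stood lower on average, with overlap (428 ± 73.9 and 365 ± 34.6, n = 4 and 4; -0.22 ± 0.13, adjusted p = 0.362). Its effect there was -0.73 ± 0.18 relative to that in inguinal fat (adjusted p = 0.100). Of the chosen Rnf8 transcript 28.5% overlaps Gm28043 on the same strand, so part of its reads is uncertain. Siah2, a RING ligase that turns over signalling proteins, was higher in both adipocyte knockouts, at 154, 153 and 202 against 302 and 266 (0.75 ± 0.23, adjusted p = 0.137).

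Groups without overlap are common in tables this small. Of all genes tested, the genotypes did not overlap for 17.0% on chow, 14.0% in 4-week fat, 16.5% in 12-week fat, 48.0% in adipocytes and 5.48% in inguinal fat. Of the 10 regulators, 3, 1, 2, 5 and 2 did not overlap in these tables. The median log2 fold change of the 10 was 0.18, -0.07, -0.16, -0.01 and -0.07, beside 0.11, -0.09, -0.03, -0.04 and 0.01 for all genes tested.

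Levels between genes can be set side by side only per length, here in TPM, reads per base of transcript scaled to the same total in each library. In 4-week wild types Birc2 was highest at 15.5 ± 1.92 TPM, followed by Traf2 at 12.4 ± 0.21, and Tnfaip3 was lowest at 5.58 ± 1.70 (SD, n = 4). Siah2, next above it at 6.01 ± 0.65, lay within that spread. In the 4-week knockouts Tnfaip3 ranked 3 of the 10, at 11.4 ± 1.11 TPM. In adipocyte wild types Tnfaip3 ranked first at 15.6 ± 5.29 TPM, not apart from Birc2 at 15.0 ± 1.59 or Ube2v1 at 14.4 ± 1.86 (n = 3). In adipocyte knockouts Tnfaip3 stood at 76.7 ± 13.4 TPM and Birc2, next in order, at 15.1 ± 1.38 (n = 2).

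**Figure D3:**
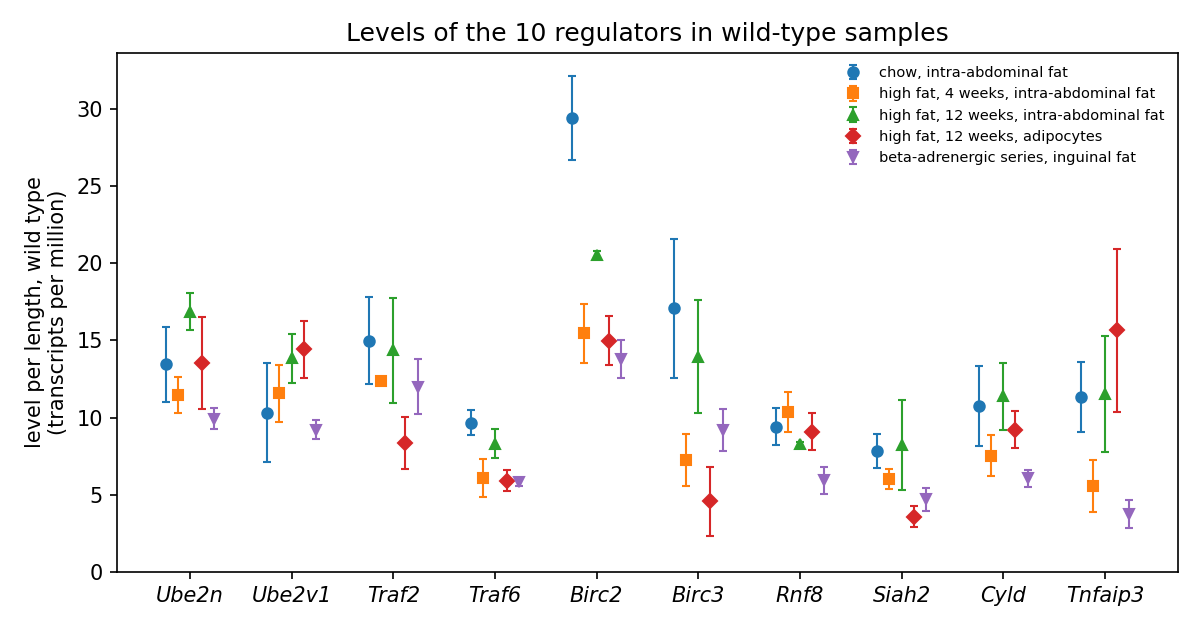
Level per length (TPM, mean and SD over wild-type replicates) of the 10 regulators, one symbol per table. Birc2 is highest in each table but the adipocytes, where Tnfaip3 at 15.6 and Birc2 at 15.0 lie within each other's spread.

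The genes whose within-group deviations were most like those of Tnfaip3 over 33 samples and 9830 genes were Tmod3, a cap of actin filaments (Pearson r = 0.76), Gpc4, a cell-surface proteoglycan (0.74), and Retnla, a macrophage and adipose gene (0.73). These samples share tables, and the values are descriptions.

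Among the pathway genes around the regulators, 3 of 24 NF-kB factors and targets rose in adipocytes and none fell, where 0.540% of all genes rose (list median 0.76, beside -0.04 for all genes). Nfkbia, the inhibitor that holds NF-kB in the cytoplasm, had 2000 ± 416 normalised reads in wild type and 6939 ± 693 in knockout (SD, n = 3 and 2; log2 fold change 1.81 ± 0.20, adjusted p = 0.0293 by limma). The chemokine gene Cxcl1 went from 1361 ± 183 to 8289 ± 666 (2.61 ± 0.16, adjusted p = 0.00709). Ier3, an early response gene, went from 175 ± 44.4 to 1505 ± 196 (3.12 ± 0.25, adjusted p = 0.0139). Of the 12 genes of the JNK arm, 5 rose and none fell (median 0.93): Atf3 (3.74), Junb (2.43), Fos (2.24), Jund (2.22) and Dusp1 (1.30). These 5 are immediate-early or stress-response genes, and neither Jun nor the kinases of the list passed. These 8 calls depend on the fit and on single samples: without trend or robust moderation none of the 8 passed, with adjusted p of 0.0629 to 0.109, and the fold changes were the same. The NF-kB count was 0 without wild type 1, 2 without wild type 2, 13 without wild type 3, 0 without knockout 1 and 2 without knockout 2. The JNK count was 0, 2, 5, 1 and 2 in the same order. Of the chosen Jund transcript 52.6% overlaps Gm11175 on the other strand.

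In 4-week fat none of these 8 genes passed, and whether their effect differed between 4-week fat and adipocytes was not tested. Nfkbia stood at 975 ± 214 and 1214 ± 74.5 (SD, n = 4 and 4; 0.34 ± 0.14, adjusted p = 0.207 by limma). Cxcl1, at 8.58 ± 2.49 and 7.06 ± 0.285, was under the filter. Of the 20 NF-kB genes tested there 1 fell, Tnfaip2, a TNF-induced gene (313 ± 27.0 to 201 ± 23.8; -0.64 ± 0.11, adjusted p = 0.0195), and the median was -0.06. Of the 12 JNK-arm genes 1 fell, Map3k5, the stress kinase ASK1 (586 ± 58.3 to 427 ± 11.9; -0.45 ± 0.09, adjusted p = 0.0307). Of all genes 2.45% fell in this table, the share against which 1 of 20 and 1 of 12 stand. Without knockout 2, 3 or 4 Tnfaip2 no longer passed (adjusted p = 0.0522, 0.0518 and 0.0687), and Map3k5 passed in 11 of 23 alternatives (adjusted p up to 0.102).

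Of 31 other ubiquitin enzymes, readers and deubiquitinases 1 fell in 4-week fat and none rose, a share near the 2.45% of all genes that fell. It was Optn, a ubiquitin-binding adaptor that reads K63 and linear chains, which went from 1483 ± 317 to 725 ± 81.3 normalised reads (SD, n = 4 and 4; -1.01 ± 0.16, adjusted p = 0.0115 by limma), and it passed in 23 of 23 alternatives. None of the 31 passed in adipocytes. Of 11 TNF ligands, receptors and adaptors tested in each of these tables, none passed: Ripk1, the kinase at the TNF receptor, was 1399 ± 129 and 2168 ± 149 in adipocytes (n = 3 and 2; 0.63 ± 0.14, adjusted p = 0.0874). Tnf itself was under the filter in 4-week fat and 91.8 ± 137 and 207 ± 197 in adipocytes. On chow, in 12-week fat and in inguinal fat no gene of the 4 lists passed. In 12-week fat 18 of 21 tested NF-kB genes stood lower in knockout (median -0.38, beside -0.03 for all genes). Of the 12 JNK-arm genes 9 stood lower there (median -0.11). Of all 17685 genes tested in that table, 9395 stood lower. The NF-kB median was -0.04 on chow and 0.07 in inguinal fat.

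**Figure D4:**
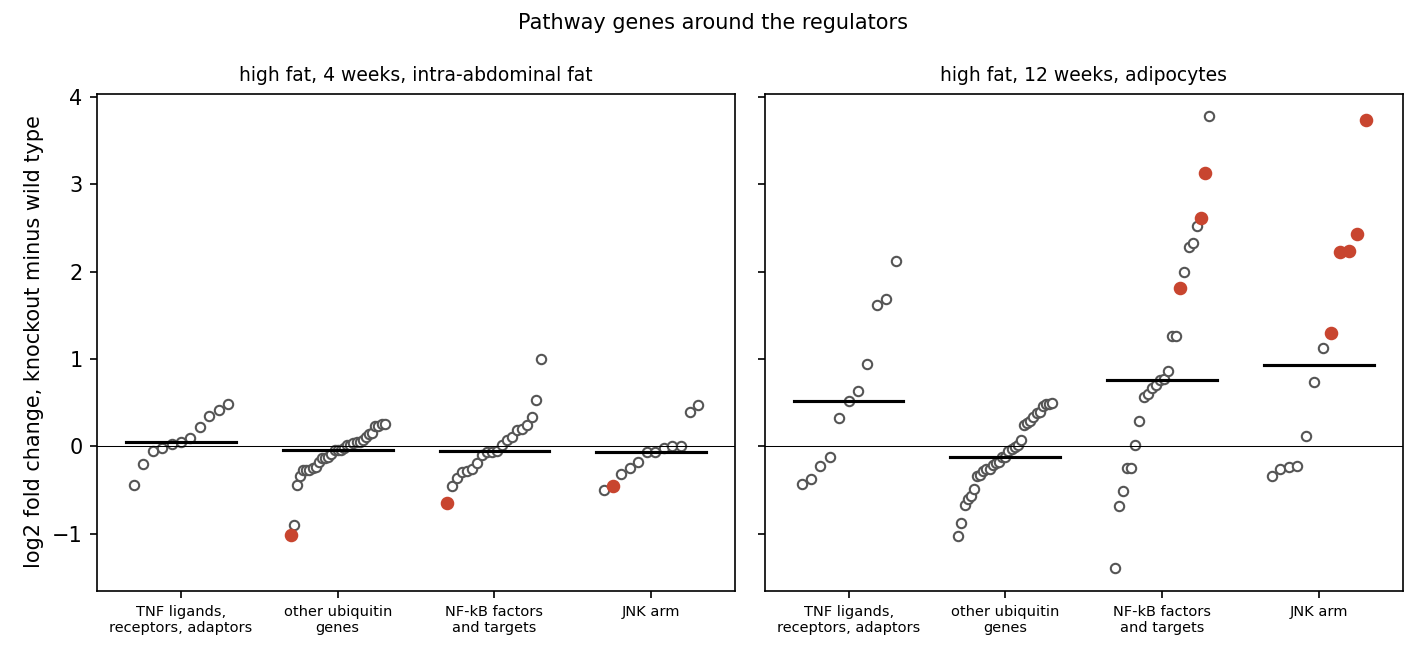
Log2 fold change, knockout minus wild type, of each tested gene of the 4 pathway lists (points, filled where the adjusted p passed 0.05; bars, list medians) in 4-week fat and in adipocytes. In adipocytes the medians of the NF-kB and JNK lists lie at 0.76 and 0.93, and in 4-week fat at -0.06 and -0.06.

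In adipocytes the sums of several marker lists of other cell types differed between the genotypes, though no single marker passed. Of all genes tested, 48.0% did not overlap in this table. The 7 endothelial markers summed to 3157, 1818 and 3448 normalised reads in the wild types and to 30011 and 13509 in the knockouts, and all 7 were higher in knockout (median log2 fold change 2.88; none passed, and none was at 0 in any sample). The 4 mesothelial markers summed to 110.1, 138 and 537 against 1295 and 862. Macrophage markers summed to 4314, 3469 and 21684 against 12486 and 6417, with wild type 3 highest. Stromal and progenitor markers summed to 14382 to 20835 in wild types and 25109 to 26588 in knockouts. Sums were lower in knockout for neutrophil markers (152 to 943 against 37.3 to 41.9) and skeletal muscle markers (2648 to 5483 against 899.5 to 2476), and the adipocyte markers summed to 1565337 to 1946324 against 1957643 to 2059510. In bulk RNA, more cells of a type and more RNA per cell cannot be told apart, and the part of these cells in the Tnfaip3, NF-kB and JNK results of the adipocyte table was not tested.

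In 4-week fat the sums of these lists overlapped between genotypes, but single markers passed. Endothelial markers summed to 12310 to 16262 in wild types and 10326 to 14200 in knockouts, and macrophage markers to 10434 to 19821 and 16452 to 17521. Of the 10 adipocyte markers 2 rose, Pparg (0.63) and Cfd (0.97), where 1.01% of all genes tested rose. Of these 10 markers 5 stood higher and 5 lower in knockout (list median 0.006, beside -0.09 for all genes tested). The T cell marker Cd4 rose from 6.62 ± 2.15 to 20.1 ± 4.93 normalised reads (n = 4 and 4, log2 fold change 1.49, adjusted p = 0.0380 by limma). The 7 T cell markers were low, and their sums overlapped (86.7 to 169.5 in wild types, 133 to 226.5 in knockouts). Their mean log2 level was 3.17 to 4.03 in wild types and 4.10 to 4.81 in knockouts, just without overlap. Of all genes tested, 14.0% did not overlap in this table. The macrophage marker Mertk (-0.65) and the endothelial marker Sox18 (-1.33) fell, where 2.45% of all genes tested fell. All tested markers stood higher in knockout, with none passing, in the B cell list (6 of 6, median 0.89), the stromal and progenitor list (7 of 7, 0.49) and the mesothelial list (4 of 4, 0.82). The part of these cells in the 4-week Tnfaip3 result was not tested.

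**Figure D5:**
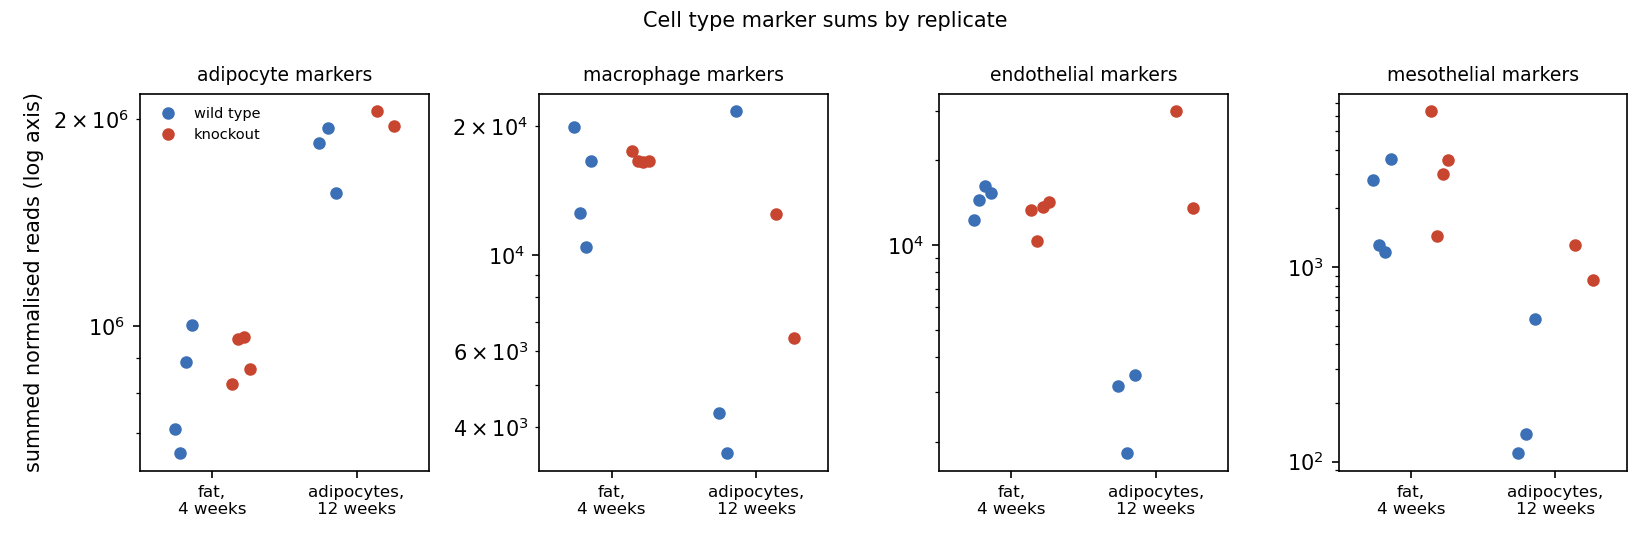
Summed normalised reads of 4 marker lists per replicate (log axes) in 4-week fat and adipocytes; the 2 tables were normalised separately. In adipocytes both knockouts lie above all wild types for endothelial and mesothelial markers and, by a small margin, for adipocyte markers. In 4-week fat the genotypes overlap for all 4 lists.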

How the data were processed

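Poly(A) RNA of mouse fat and adipocytes was sequenced from TruSeq Stranded mRNA libraries, per the labels' protocols. The deposited signal values are reads per Ensembl transcript over a library's size factor, as the steps of the values show; GRCm38.p4, STAR 2.4.0k, HTSeq 0.5.3, DESeq 1.8.3, SAMtools and bcl2fastq 2.17 are listed in the submitters' processing notes without settings, and the sources used here do not say whether counting used strand. Of 100 samples 99 were used; the adipocyte table also has 1 column whose name reads as wild type 4, left out for want of a sample of that name, and the third adipocyte knockout was not analysed here; the labels do not say whether the 2 belong together.

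Transcripts were mapped to symbols with GENCODE M21 (698 of 97669 had no gene, holding 0.333% of the values), and 1 transcript was taken per gene. The 4 libraries of a replicate, which agreed within about sampling noise, were averaged. limma 3.58.1 (trend, robust) was run on log2(value + 1), genes with a mean of 10 or more, genotype as the only term, Benjamini-Hochberg over all genes at 0.05; such fold changes understate the change of low genes. Differences between tables were tested as interactions, since the tables were normalised separately. Per-length levels (TPM) were computed from the chosen transcripts. The script was tested on simulated data.

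The regulators, lists and tests were chosen with earlier results of these data known. Named were Gps2, the 10 regulators, up to 8 passing genes of each list by smallest p and, where none passed, up to 2 as values. Alternatives were fits without trend or robust moderation, TMM scaling, other filters and pseudocounts, and replicate blocks. Others were each leading number alone, another transcript choice, replicates left out, and chow knockouts 1 and 2 taken as 1 sample. edgeR 4.0.16 and DESeq2 1.42.0 were run on the whole reads recovered from 96 libraries (100% of values whole within 0.01). In 3 libraries reads were not recovered. Correlations of the deviations of same-numbered wild types and knockouts ran from -0.576 to 0.582 and in no table were over 0.1 for every number (on chow 0.566 and 0.582 for numbers 3 and 2, -0.333 for number 1), so the numbers were not taken to pair them. Same-numbered samples of 12-week fat and adipocytes did: the correlations of their deviations from the group means were 0.418 to 0.695 in wild types and 0.162 and 0.362 in knockouts.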

Additional observations from a re-analysis of the deposited data

Results flagged for a closer look

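Within groups of 4 samples, 3 of 40 group checks found 1 sample far from the rest by Dixon's ratio; chance flags about 1 in 20 such groups. Birc3 stood at 166 normalised reads in wild type 1 of 4-week fat, against 137 to 139 in the other 3. Ube2v1 stood at 145 in inguinal knockout 1, against 125 to 128, and Rnf8 stood at 378 in the same sample, against 292 to 306.

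The genotype effect on Tnfaip3 differed between tables by an interaction test in limma. It was 2.50 larger on the log2 scale in adipocytes than in 12-week fat (adjusted p = 0.0268), where both knockouts lay above all wild types in the first and the groups overlapped in the second. It was 1.27 larger in 4-week fat than in inguinal fat (adjusted p = 0.0175), with all 4 knockouts above all 4 wild types in 4-week fat.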

How the results depend on the processing

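The rise of Tnfaip3 in 4-week fat kept its direction and its call under every alternative run. In adipocytes the number of regulators called was 1 in the main test, 0 without trend or robust moderation (Tnfaip3 2.25, adjusted p = 0.105), 2 with the replicate block, which drops wild type 3 (Birc3 1.34, adjusted p = 0.0165), and 3 with DESeq2 (Ube2n -0.62 and Siah2 0.79 besides). With 1 replicate left out the number was 0 to 1, and Tnfaip3 ranged from 2.00 to 2.47. DESeq2 called 2 in 4-week fat (Birc3 0.54, adjusted p = 0.0490) and 1 in inguinal fat. Genes called in all were 90 in adipocytes, 3 to 718 with 1 replicate left out, 0 without trend or robust moderation, 143 with TMM, 164 with edgeR, 391 with no filter, 1476 with the block and 1805 with DESeq2. In 4-week fat they were 486, 126 to 1178 with 1 replicate left out, 272 with the block and 1474 with DESeq2. DESeq2 called 949 on chow, 534 in 12-week fat and 270 in inguinal fat, against 0, 0 and 4.

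For differences between tables, the replicate block within each table called 2 regulators between adipocytes and 12-week fat (Birc3 1.56 besides Tnfaip3) and 0 between 4-week and inguinal fat (Tnfaip3 1.27, adjusted p = 0.0828). With 1 replicate left out the number was 0 to 1 between adipocytes and 12-week fat (Tnfaip3 2.25 to 2.80), 12-week and 4-week fat, and 4-week fat and chow. The cause of these changes was not tested.

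TMM scaling moved the median of all genes on chow by -0.11. Signs turned only for regulators whose log2 fold change in the main test lay from -0.105 to 0.055. These passed under no setting in the table concerned, and the turned values reached -0.17. Traf2 on chow turned to -0.096 (TMM), -0.093 (edgeR), -0.10 (DESeq2), and -0.037 and -0.022 with leading numbers 1 and 4 alone. Traf2 in 4-week fat turned to -0.11 with leading number 1 alone and -0.058 without wild type 1 and knockout 1. Traf6 there turned to 0.083 (TMM), 0.066 (edgeR), 0.067 (DESeq2) and 0.020 (number 4 alone), and Cyld to -0.057 and -0.0034 (numbers 3 and 4 alone) and -0.018 (without those 2 samples). Birc2 in 12-week fat turned to -0.012 without knockouts 2 and 3, chosen after seeing the data. With the block in adipocytes Traf2 turned to 0.018 and Rnf8 to -0.066. In inguinal fat Ube2v1 turned to -0.027 (TMM), -0.017 (edgeR), -0.011 (DESeq2), and -0.025 and -0.17 with numbers 2 and 3 alone, Birc3 to -0.0061 (TMM), -0.0028 (edgeR) and -0.017 (number 4 alone), Traf2 to 0.054 and 0.056 (numbers 2 and 4 alone) and Cyld to 0.045 (number 2 alone). With 1 replicate left out the ranges were -0.020 to 0.071 (Traf2, chow), -0.066 to 0.11 (Traf2), -0.046 to 0.036 (Traf6) and -0.037 to 0.057 (Cyld) in 4-week fat, -0.025 to 0.10 (Birc2) and -0.19 to 0.063 (Cyld) in 12-week fat, -0.24 to 0.018 (Traf2), -0.18 to 0.019 (Birc2) and -0.066 to 0.16 (Rnf8) in adipocytes, and -0.045 to 0.028 (Ube2v1), -0.15 to 0.0081 (Traf2) and -0.025 to 0.099 (Birc3) in inguinal fat.

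The 2 adipocyte knockouts limit what that table can show, and no depth limit applied to the regulators, whose group means were 68.7 normalised reads or more.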

Other observations

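Optn, the ubiquitin-binding adaptor that fell in 4-week fat, also stood lower in knockout in the other 3 intra-abdominal tables without passing the test there. It was 769 ± 154 and 420 ± 39.8 normalised reads on chow (SD, n = 3 and 3; log2 fold change -0.86 ± 0.18, adjusted p = 0.504 by limma). In 12-week fat Optn was 5307 ± 928 and 3294 ± 459 (n = 3 and 3; -0.68 ± 0.17, adjusted p = 0.380), and in adipocytes 5260 ± 1130 and 2732 ± 1390 (n = 3 and 2; -1.02 ± 0.35, adjusted p = 0.161). In inguinal fat Optn was 1365 ± 103 and 1294 ± 196 (n = 4 and 4; -0.09 ± 0.14, adjusted p = 0.922). The gene was singled out after its values were seen, and same-numbered samples of 12-week fat and adipocytes deviate together.

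In inguinal fat Sqstm1, an autophagy adaptor that binds ubiquitin, stood at 3756 ± 412 and 6334 ± 714 (SD, n = 4 and 4; 0.75 ± 0.15, adjusted p = 0.105 by limma). In 12-week fat the chemokine gene Ccl2 stood at 746 ± 570 and 133 ± 30.9 (n = 3 and 3; -2.25 ± 0.50, adjusted p = 0.350).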
